A study of Mus musculus with 5 samples.

Results

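DRACH sites in the coding sequence of last exons were examined, that is, adenosines in the motif that the main mRNA m6A writer uses (A, G or T, then A or G, then the called A, then C, then A, C or T). A site was a member where it lay in coding sequence of the last exon of a multi-exon protein-coding gene of mm10, by the RefSeq-linked APPRIS principal transcript of GENCODE M21 on the strand of the call. In all, 7024 of 512355 deposited positions met this rule, against 41431 DRACH positions anywhere on the chosen transcripts. The METTL3 inhibition dataset held 6755 members on 1653 genes, the Mettl5 dataset held 2284 on 575 genes, and 2015 members were covered in both.

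The 5 direct RNA sequencing libraries of mouse embryonic stem cells (mESCs) comprised 1 each of DMSO, STM2457 and WT and 1 of each Mettl5-KO clone. The METTL3 inhibition dataset was made from E14 mESCs that carried the reporters 2C::3xtbGFP-PEST and Zscan4::mCherry-PEST, a Dox::APOBEC1-YTH-HA-IRES-tdiRFP transgene that was not induced, and FKBP12 F36V knocked in at the C-terminus of both Mettl3 alleles, also without induction. These alleles were present both in the DMSO culture (0.025% v/v) and in the culture given 30 μM STM2457, a METTL3 inhibitor, for 48 h. The Mettl5 dataset consisted of WT mESCs and of the knockout lines Mettl5-KO clone #1 and Mettl5-KO clone #2, each a single clone from an earlier study, with no STM2457 given. Cells were grown in serum with LIF, and for maintenance the 2i inhibitors PD032591 and CHIR99021 were added to the medium. Batch labels separated the datasets, so batch, cell line and dataset cannot be told apart. Positions on 10 of 10 mESC marker genes were covered in the METTL3 inhibition dataset and on 8 of 10 in the Mettl5 dataset, against 1 of 8 and 0 of 8 for markers of other cells. No deposited position lay on Mettl3 or Mettl5, so neither gene could be checked in these files.

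N6-methyladenosine (m6A) on mRNA is laid down in the nucleus by a complex of METTL3, METTL14 and WTAP, while METTL5 is known as the m6A methyltransferase of 18S ribosomal RNA. Exon junction complexes, which remain on the mRNA upstream of each splice junction, are known to keep the writer away from nearby sequence, so that m6A gathers in long internal exons and in last exons, around the stop codon. The coding part of the last exon begins at the final splice junction and ends at the stop codon, so it spans both surroundings.

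The sequences below carry the main comparison. They show the same GGACT motif close to and far from the last exon junction on the same last exon, in the 3 genes with such a pair covered in all 5 libraries, and then 2 neighbouring sites of Nup62 that responded differently to STM2457. Each is 21 bases of the GENCODE M21 transcript, 5′ to 3′, with the DRACH motif in capitals and the called A in the middle. The positions are those of that A in mm10.
Mrpl17, 8 nt from the junction, chr7:105810137, minus strand, exon 3: acagagaaGGACTtgatccca
Mrpl17, 213 nt from the junction, chr7:105809932, minus strand, exon 3: tgctcctgGGACTgcagcagg
Tuba4a, 18 nt from the junction, chr1:75216576, minus strand, exon 4: agtgcacaGGACTtcagggct
Tuba4a, 659 nt from the junction, chr1:75215935, minus strand, exon 4: cagtttgtGGACTggtgcccc
Erp29, 91 nt from the junction, chr5:121445482, minus strand, exon 3: cgggatggGGACTtggagaac
Erp29, 361 nt from the junction, chr5:121445212, minus strand, exon 3: caaggtgaGGACTttccagcc
Nup62, 1269 nt from the junction, chr7:44829755, plus strand, exon 2: caggagctGGACTttatcctg
Nup62, 1536 nt from the junction, chr7:44830022, plus strand, exon 2: gcacacatGGACTctcttcag

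The methylation level of a site was the percent of its valid calls that were m6A. In DMSO the members had a mean level of 13.4% (SD over sites 24.0) and a median of 2.27%, so that most sites carried little m6A and a few carried much. The mean was 3.27% (SD 9.34) with STM2457 and 8.72% (SD 18.3) in WT. Clone #1 had 9.21% (SD 19.0) and clone #2 had 9.45% (SD 19.2). Adenosines outside DRACH motifs in the same coding sequence, taken as a rough background of the caller, had means of 1.04% in DMSO, 0.847% with STM2457 and 1.36% in WT. They cannot be taken as background alone. In DMSO 139 of the 72189 were at 25% or more, with a median of 38.0%, and the median of these was 11.3% with STM2457. A site was counted as methylated at 25% or more. This held for 1175 members in DMSO (17.4%, exact binomial 95% interval 16.5 to 18.3) on 520 genes, and for 236 members with STM2457 (3.49%, interval 3.07 to 3.96). It held for 246 of 2284 members in WT (10.8%), while clone #1 had 265 (11.6%) and clone #2 had 263 (11.5%). A level of 80% or more was found at 324 members in DMSO and at 12 with STM2457. The median coverage of a member was 64 reads in DMSO, 54 with STM2457, and 53 in WT, while clone #1 had 46 and clone #2 had 53. Intervals cover counting error only.

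Within last-exon coding sequence the level rose with distance from the last exon junction, counted in spliced bases from the first base of the last exon. In DMSO the mean was 2.52% over the 1851 members at 1 to 50 nt, 6.65% at 51 to 100 nt and 17.2% at 100 to 200 nt, where each class leaves out its lower bound. It was 26.1% at 200 to 400 nt, 27.9% at 400 to 800 nt and 24.6% beyond 800 nt. The level was thus low next to the junction and leveled off past about 200 nt. The share of methylated members was 1.89% at 1 to 50 nt, 23.7% at 100 to 200 nt and 37.5% at 400 to 800 nt. In WT the corresponding means were 1.97%, 4.79%, 12.2%, 14.5%, 18.3% and 12.4%. With STM2457 they were 0.499%, 1.13%, 3.43%, 6.38%, 8.50% and 8.31%, so the gradient remained at a lower level.

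**Figure D1:**
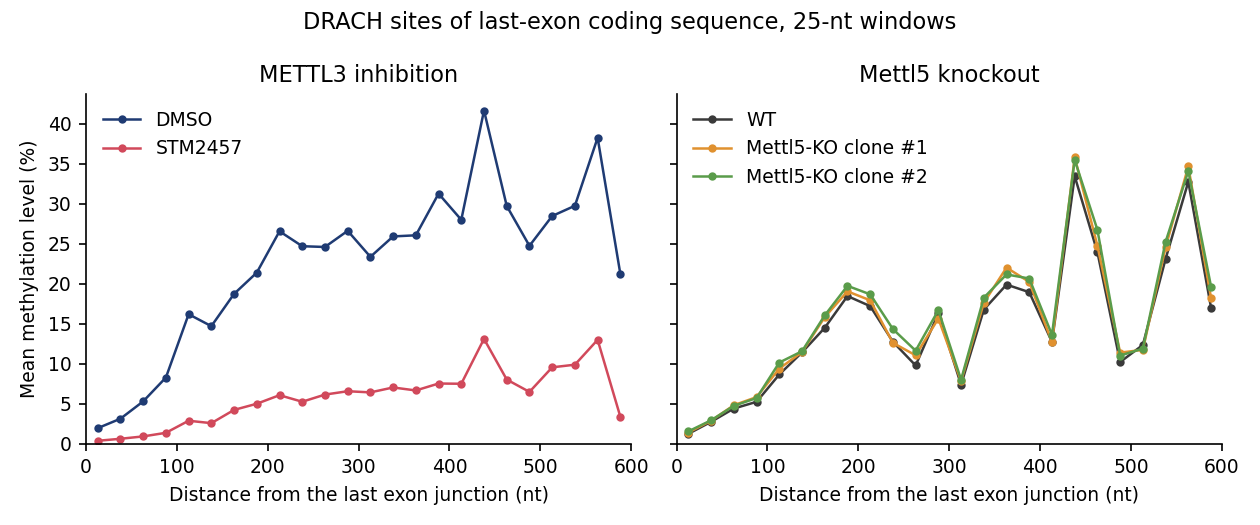
Mean methylation level (%) of DRACH sites in last-exon coding sequence against distance from the last exon junction (nt), in 25-nt windows, with 1 line per library. In DMSO the mean was 1.96% in the window of 1 to 25 nt, and the lines of all 5 libraries start low at the junction and rise over about 200 nt.

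Members over 200 nt from the junction (far) were compared with those up to 100 nt from it (near) in each library. In DMSO the far mean was 26.3% over 1927 members and the near mean 4.37% over 3351 members. The far and near means were 7.47% and 0.782% with STM2457, 15.5% and 3.14% in WT. Clone #1 had 16.2% and 3.44%, and clone #2 had 16.7% and 3.46%. The far mean was higher in 5 of 5 libraries, by 13.4 percentage points on average (SD 5.47, n = 5, exact sign-flip permutation test, two-sided, p = 0.063, the smallest p that 5 libraries can give). The libraries differ in condition, and those of 1 dataset share their members, so they are not independent replicates. The difference ran from 6.69 points with STM2457 to 22.0 in DMSO, so the SD holds differences between conditions. With calls pooled over sites the mean difference was 6.61 points, and over motifs that start with GGAC it was 33.5 points. Near members made up 49.6% of all members in DMSO but 12.8% of the methylated ones, whereas far members made up 28.5% of all and 57.4% of the methylated. The contrast was also present within genes. Of 254 genes with both near and far members in DMSO, 213 had the higher mean at far members, with means of 27.7% and 7.12%. In WT the same held for 68 of 78 genes.

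GGACT sites showed the gradient over most of the scale. Their mean level in DMSO was 11% at 1 to 50 nt, 31.7% at 51 to 100 nt, 54.4% at 100 to 200 nt, 75.5% at 200 to 400 nt, 81.4% at 400 to 800 nt and 85.0% beyond 800 nt. Far from the junction 129 of 136 GGACT members were methylated and 84 were at 80% or more, whereas near it 49 of 198 were methylated and 11 were at 80% or more. The 7 unmethylated far sites lay on 5 genes and included 2 of Ddx5, an RNA helicase gene, at 19.4% and 16.2%, and 2 of Pin1rt1, at 10.4% and 0.510%. Genes with GGACT sites on both sides numbered 8 in DMSO, a set put together after the values were seen, and the far mean was higher in 5 of them.

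The pairs printed above differed among themselves. In Mrpl17, which encodes a protein of the mitochondrial ribosome, the site at 8 nt was at 2.20% in DMSO, 0.360% with STM2457, and 4.92% in WT, while clone #1 had 0% and clone #2 had 2.27%. The Mrpl17 site at 213 nt was at 35.1%, 2.79%, 31.7%, 24.5% and 43.1% in the same order. In Tuba4a, an alpha-tubulin gene, the site at 18 nt was at 10.6%, 0.881%, 10.3%, 5.13% and 12.8%. The Tuba4a site at 659 nt was at 97.1%, 66.4%, 95.8%, 100% and 97.8%. For both genes the far site was above the near site in every library. In Erp29, which encodes a protein of the endoplasmic reticulum, the site at 91 nt was at 75.9%, 24.4%, 73.5%, 62.1% and 63%. The Erp29 site at 361 nt was at 70.7%, 17.7%, 76.9%, 83.3% and 68.8%, so the order of the Erp29 sites changed between libraries.

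Single sites close to the junction were methylated nonetheless. In DMSO 35 of the 1851 members at 1 to 50 nt reached 25%. The closest was on Ydjc, a GGACC site 5 nt from the junction (chr16:17148160) with 47.6% of 42 reads, and 0% of 25 reads with STM2457. A GGACT site of Llgl1, a cell polarity gene, 12 nt from the junction (chr11:60713140) was at 100% of 28 reads in DMSO and at 21.4% of 28 reads with STM2457. A GAACT site of Pgd, which encodes an enzyme of the pentose phosphate pathway, 36 nt from the junction (chr4:149150728) was at 76.3% of 194 reads and at 16.9% of 136 reads with STM2457. The deepest of them lay on Eif4ebp1, whose product restrains translation initiation, 25 nt from the junction, with 32.1% of 919 reads in DMSO and 4.34% of 738 reads with STM2457. These sites were picked after their values were known, as the closest to the junction, the 2 with the highest level and the one with most reads among the methylated members at 1 to 50 nt.

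Distance from the stop codon did not order the levels in the same way once the junction distance was held. Among near members in DMSO the mean was 4.37% in the last 100 nt of the coding sequence, 4.02% at 100 to 400 nt before its end and 6.42% further upstream. Among far members these means were 28.1%, 28.4% and 22.4%. In WT they were 3.02%, 3.16% and 3.87% near the junction, and 16.9%, 19.0% and 10.8% far from it. Near and far members therefore stood apart at every distance from the stop codon. In 53 genes the whole coding sequence lay in the last exon, and 27.5% of their 692 members were methylated in DMSO, against 16.2% of the 6063 members of genes with a split coding sequence. At matched junction distance the difference was small, with means of 5.74% and 4.34% near the junction and 24.0% and 27.2% far from it.

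The called adenosine was the second base of a codon at 52.8% of members, the first at 27.3% and the third at 20.0%. Mean levels in DMSO were 10.8% at codon position 1, 13.8% at position 2 and 15.9% at position 3. Among GGACT members the order was the opposite, with 50.7%, 46.7% and 43.5%. Codon position thus had no uniform direction across motifs.

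The 18 DRACH motifs differed widely. In DMSO the mean level was 46.8% for GGACT (453 members), 29.8% for GAACT, 26.8% for GGACA, 25.5% for AGACT, 17.6% for GGACC and 15% for TGACT. At the other end stood TAACC with 0.671% and AAACC with 0.786%, both below the mean of adenosines outside the motif. By base, the mean was 26.5% where the fifth base was T, 10.4% for A and 6.03% for C, and 22.4%, 8.42% and 5.26% where the first base was G, A or T. By number, GGACT made up 6.71% of members and 6.39% of all DRACH positions of the dataset, and GGACA 9.02% and 7.67%. Motifs that start with TAAC were rarer among members, with TAACT at 1.23% against 2.90%, TAACA at 1.24% against 2.58% and TAACC at 1.79% against 2.34%, and AAACA at 4.44% against 6.05%. Levels differed by distance within motifs as well. GAACT rose from 10.3% near the junction to 61.8% far from it, GGACA from 9.23% to 51.6%, AGACT from 8.62% to 50.5%, and TAACC from 0.346% to 1.17%.

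Last-exon coding sequence was set beside the most similar parts of the chosen transcripts, without matching by gene. In DMSO the members lay on 1653 genes, short internal exons on 789, long internal exons on 71 and 3′ UTR on 1998. The differences between regions therefore also hold differences between sets of genes. In DMSO its mean of 13.4% compared with 0.784% for DRACH sites of internal coding exons of up to 200 nt, where 11 of 6762 were methylated. It compared with 19.3% for internal coding exons of over 400 nt and 17.1% for 3′ UTR within 400 nt of the stop codon in the last exon. Members were above short internal exons in 5 of 5 libraries, by 8.17 percentage points on average (SD 3.45, n = 5, exact sign-flip permutation test, two-sided, adjusted p = 0.063). They were below long internal exons in 5 of 5 libraries (mean difference -5.81, SD 2.08, n = 5, adjusted p = 0.063 by the same exact test) and below 3′ UTR (mean difference -2.78, SD 1.11, n = 5, adjusted p = 0.063 by the same exact test). With 5 libraries the test cannot give a smaller p, and here too the libraries are not independent replicates. With internal exons of over 300 nt taken as long, the difference from them was -2.26 points.

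At matched junction distance the order of the site means changed. Up to 100 nt from a junction the DMSO means were 4.37% for members, 6.40% for long internal exons, counted from the nearer junction, and 7.196% for 3′ UTR. Over 200 nt from it they were 26.3%, 28.5% and 18.1%. By these site means, far members were thus above 3′ UTR sites at the same distance, although members as a whole were below them. With calls pooled over sites the order was the other way in DMSO, with 12.99% for far members and 15.03% for 3′ UTR. The pooled order was the same in WT (9.60% and 10.48%), clone #1 (9.54% and 11.57%) and clone #2 (9.25% and 12.12%). With STM2457 the pooled level of far members stayed above that of 3′ UTR (4.03% and 3.75%). These matched values were not tested.

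**Figure D2:**
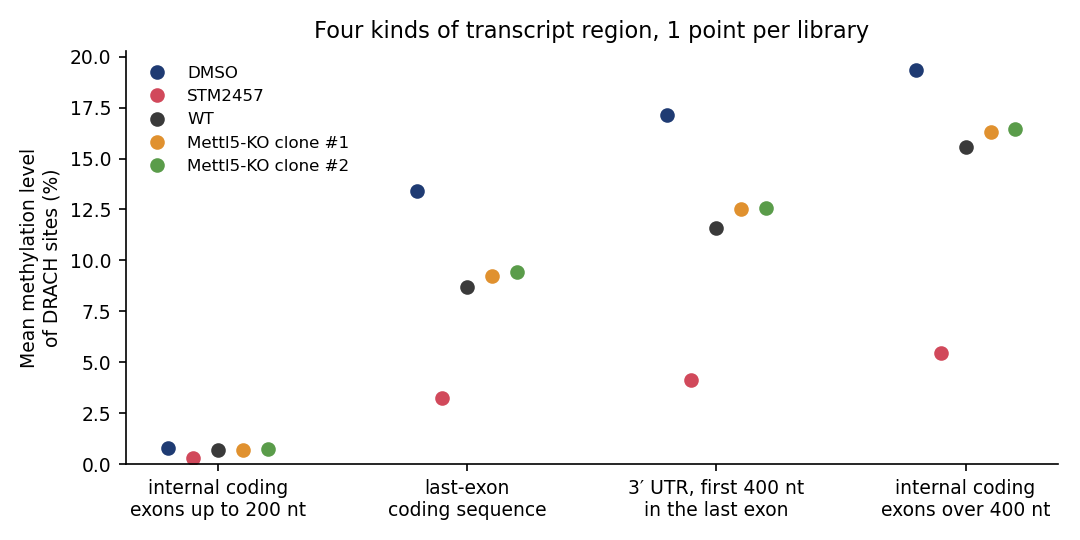
Mean methylation level (%) of DRACH sites in 4 kinds of transcript region, with 1 point per library and color marking the library. In DMSO the means are 0.784%, 13.4%, 17.1% and 19.3% from left to right, and the order of the regions is the same in each of the 5 libraries.

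With STM2457 the level was lower at nearly all methylated members. By Fisher's exact test per position, adjusted by Benjamini-Hochberg across the whole dataset, STM2457 was lower at 1272 of 6755 members (18.8%) and higher at 0. Over all 471848 positions 1.35% were called lower and 0.00254% higher, and over all DRACH positions 14.6% were called lower. With 1 library per condition the test compares libraries, with no replicate check. Of the 1175 members methylated in DMSO, 1173 had a lower level with STM2457 and 967 were called (82.3%). Their median level was 56.5% in DMSO and 9.38% with STM2457, and the mean relative decrease was 77.8% (SD over sites 16.9). The class was chosen by its level in DMSO. With STM2457 235 of them were still at 25% or more (20.0%, exact binomial 95% interval 17.7 to 22.4), and 1 member was methylated with STM2457 alone. For the same class of sites, 82.2% were called in 3′ UTR, with a mean relative decrease of 77.7%, and 84.3% in long internal exons, with 73.7%.

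**Figure D3:**
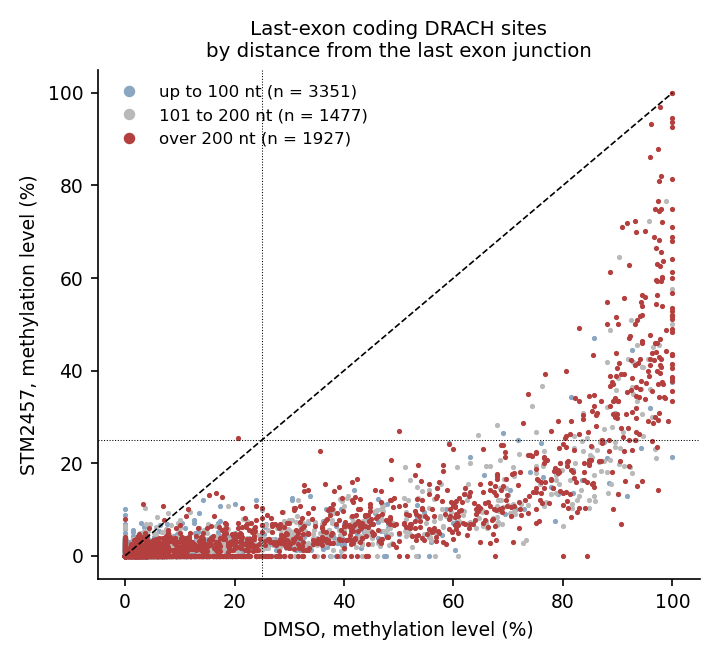
Methylation level (%) with STM2457 against DMSO for each DRACH site of last-exon coding sequence, colored by distance from the last exon junction, with the diagonal dashed and 25% dotted. Of the 1175 sites at 25% or more in DMSO, 1173 lie below the diagonal, and those that stay high are mostly sites near 100% in DMSO and over 200 nt from the junction.

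The relative decrease was smaller where the level in DMSO was higher. It averaged 86.3% for members at 25 to 40% in DMSO, 85.2% at 40 to 60%, 81.0% at 60 to 80%, 71.6% at 80 to 90% and 52.5% at 90 to 100%. The share still methylated was 0% in the lowest of these classes, 5.38% at 60 to 80%, 40.9% at 80 to 90% and 87.5% at 90 to 100%. By distance, the mean relative decrease was 85.1% at 1 to 50 nt and 69.0% beyond 800 nt, and the share still methylated was 2.86% and 34.1%. Level and distance move together here. Distances are given in the order up to 100 nt, 100 to 200 nt and over 200 nt. Within the class of 25 to 40% the mean relative decrease was 88.6%, 86.9% and 84.8%. It was 87.1%, 86.0% and 84.2% in the class of 40 to 60%, so in both classes it fell with distance. In the class of 60 to 80% it was 79.4%, 81.0% and 81.2%, and in that of 80 to 90% 71.1%, 75.1% and 69.9%. The latter classes held 19 and 9 members at up to 100 nt, and there the decrease did not fall steadily with distance. In the class of 90 to 100% it was 70.2% over 6 members, 60.6% over 34 and 50.01% over 152, so there the distances stood further apart.

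**Figure D4:**
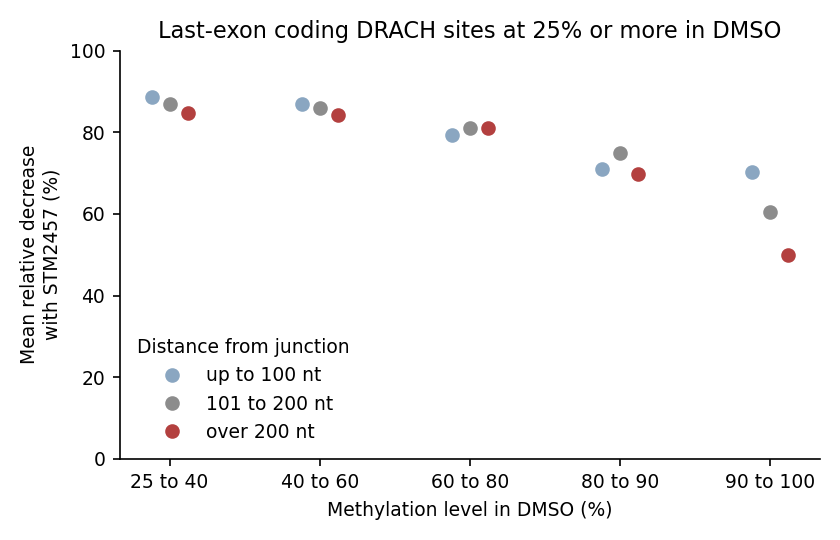
Mean relative decrease (%) with STM2457 by level in DMSO (%), for members at 25% or more in DMSO, with 1 point per class of distance from the last exon junction. The points fall from between 84.8% and 88.6% in the class of 25 to 40% to between 50.01% and 70.2% in the class of 90 to 100%, where the 3 distances are furthest apart.

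Among members with at least 50 reads both in DMSO and with STM2457, the 10 with the highest level over the calls of DMSO and WT, taken 1 per gene, were GGACT sites except in 2 genes. Sites at 100% in DMSO with fewer reads on either side, such as a Dyrk3 AGACT site with 55 reads in DMSO and 46 with STM2457, are outside this choice. A site of Pelo, a ribosome rescue factor, 159 nt from the junction (chr13:115088803) was at 100% of 51 reads in DMSO and 57.7% of 52 reads with STM2457. In Mrpl14, which encodes a protein of the mitochondrial ribosome, a site at 278 nt was at 99.2% of 125 reads and 29.1% of 165 reads. In Mfsd5, a transporter-like membrane protein gene, a site at 395 nt was at 98.8% and 44.3%. These and the sites of Mrpl46 (98.6% and 34.1%), Tmem11 (98.3% and 63.7%), Hspbap1 (98.1% and 60.3%) and Zfp57 (98.0% and 60%) were called lower, with adjusted p between 1.24e-36 and 4.95e-06 by Fisher's exact test. A site of Pym1, whose product takes exon junction complexes off mRNA, was at 98.8% and 76.6% (adjusted p = 0.00163, Fisher's exact test). The Gemin4 site, on a gene of the SMN complex, was at 98.0% and 75% and was not called (adjusted p = 0.0638, Fisher's exact test). The motif was AGACT in Tmem11 and GAACC in Zfp57. 80 of the 81 Gemin4 members and all 9 Pelo members have a window of 31 bases that also occurs in another gene model, so their reads could belong to either.

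A few methylated members kept most of their level. The relative decrease was under 25% at 22 of the 1175 members (1.87%). Among those with 50 reads or more on either side, the smallest decrease was at the Nup62 site 1536 nt from the junction, in a gene for a nuclear pore protein. It was at 97.7% in DMSO (133 reads) and 96.9% with STM2457 (129 reads), and at 100% in WT and both clones (46, 45 and 56 reads; adjusted p = 1 for STM2457, Fisher's exact test). The GGACT site 1269 nt from the junction on the same exon, also printed above, fell from 96.3% to 43.9% (adjusted p = 2.07e-19, Fisher's exact test). The GGACT sites at 839 and 1052 nt fell from 97.7% to 39.5% and from 98.3% to 37.1%. The Nup62 site thus stood apart from its neighbours on the same mRNA. The next sites were on Arf6, a small GTPase gene (97.3% and 87.8%, adjusted p = 0.820, Fisher's exact test), and Taf5l, a subunit gene of histone acetyltransferase complexes (98.0% and 82.0%, adjusted p = 0.778, Fisher's exact test). Rbmxl1, an RNA-binding protein gene (97.5% and 80.9%), and Polr1d, a gene for a subunit shared by RNA polymerases I and III (97.4% and 76.6%), followed and were called lower. All 20 Rbmxl1 members and 17 of the 22 Taf5l members have windows that recur in other gene models.

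Methylated members were spread over many genes, with 281 of 520 genes holding a single one in DMSO and 51 holding 5 or more. The median length of coding sequence in the last exon was 228 nt in genes with a methylated member and 117 nt in the others. The genes with most methylated members were Gemin4 (23 of 81), Ints5 (21 of 44), a subunit gene of the Integrator complex, Taf5l (15 of 22), Nup62 (13 of 29) and Dyrk3 (12 of 30), a protein kinase gene. With STM2457 these counts were 6, 11, 7, 4 and 5. All had long coding stretches in the last exon, of 3164, 2974, 795, 1578 and 1569 nt. Among genes with at least 3 members on either side, Aunip, whose product binds the kinase Aurora A, had a near mean of 11.3% and a far mean of 37.2%, and Atf4, a transcription factor gene of the stress response, had 2.34% and 5.89%.

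Single genes followed their own pattern. Atf4 had 22 members but 1 methylated site, an AGACT site 162 nt from the junction (chr15:80256795) at 68.4% of 453 reads in DMSO and 14.6% of 343 reads with STM2457. WT had 54.7%, clone #1 58.2% and clone #2 69.5%. The level in DMSO lay within the range of the Mettl5 dataset.

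Pluripotency factors held 61 members on 11 of 26 listed genes in the METTL3 inhibition dataset, of which 9 on 6 genes were methylated (14.8%, beside 17.4% of all members) and 19 were called lower (31.1%, beside 18.8% of all members and 14.6% of all DRACH positions). Their mean level was 14.3% in DMSO and 3.32% with STM2457, and their median in DMSO was 3.74%, beside 2.27% for all members. Zfp42 gave 8 of the 19 calls, at 268 to 391 reads per member. Pou5f1, at 578 to 997 reads, gave 2 with no methylated member. The share called depends on read depth, and it was not compared at equal depth. Nanog, a core factor of naive pluripotency, had a GGACT site 257 nt from the junction at 94.4% of 108 reads in DMSO and 46.3% of 41 reads with STM2457. Utf1, a chromatin factor of stem cells, had one at 451 nt with 92.0% and 24.9%. Zfp42 (REX1), a marker of undifferentiated cells, had an AGACT site at 161 nt with 87.0% and 24.9%. Nr0b1 (DAX1) reached 86.8%, Esrrb 75% and Klf2 39.6% in DMSO. The members of Pou5f1, Trim28, Dnmt3l, Tdgf1 and Dppa5a stayed under 25%, with highest levels between 0.0389% and 8.82%. The levels of the list did not follow junction distance alone. All 3 Tdgf1 members lay within 100 nt of the junction, but so did the only Klf2 member, Nr0b1 had 0 members over 200 nt from it, and the one Pou5f1 member over 200 nt from it was at 3.56%.

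The Zfp genes, which encode zinc finger proteins, held 116 members on 10 genes, with 36 (31%) methylated in DMSO on all 10 genes. Their mean was 24.3% in DMSO and 7.87% with STM2457, the median in DMSO was 6.69%, and 36 members were called lower (31%, again beside 18.8% of all members and 14.6% of all DRACH positions). The median junction distance was 389 nt for Zfp members and 147 nt for pluripotency members. Zfp42, with 8 members called lower, is on both lists. Zfp553, with its whole coding sequence in the last exon, had 9 methylated members of 33, and Zfp57, which protects imprints, had 10 of 19. Of 19 listed genes of the m6A machinery only Mettl16 and Ythdf1 had members, 6 in all, and 0 were methylated or called.

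In the Mettl5-KO clones the levels of last-exon coding sites lay close to WT. Of 2284 members, 0 were called in either clone by Fisher's exact test with adjustment over all 195787 positions of the dataset. Over all those positions 0.00204% were called lower and 0% higher in clone #1, 0.00306% lower and 0.00358% higher in clone #2, and 0.00204% lower and 0% higher in both. Over all DRACH positions 0% were called in either direction in either clone. At an unadjusted p under 0.05 in both clones, 1 member was lower and 14 were higher, which is 0.0438% and 0.613%. Over all positions these shares were 0.0521% and 0.0531%, and over all DRACH positions 0.0591% and 0.256%. Both clones were set against the same WT library, so they are not independent. The test compares libraries, and the 2 clones against 1 WT cannot give a two-sided permutation p under 0.667. In simulated data, calls in both clones recovered 45 of 100 members with a true 80% decrease and 23 of 100 with 50%. A change at a single site could therefore go uncalled.

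Mean differences were small and positive. Clone #1 minus WT was 0.495 percentage points over all members (SD over sites 4.61) and clone #2 minus WT was 0.736 (SD 4.53), while the clones differed from each other by 0.241 (SD 4.46). Over the 306 members methylated in at least one library the means were 47.3% for WT, 49.7% for clone #1 and 50.6% for clone #2. Of these, 211 were methylated in all 3 libraries. The spread over sites between the clones was as wide as between either clone and WT.

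**Figure D5:**
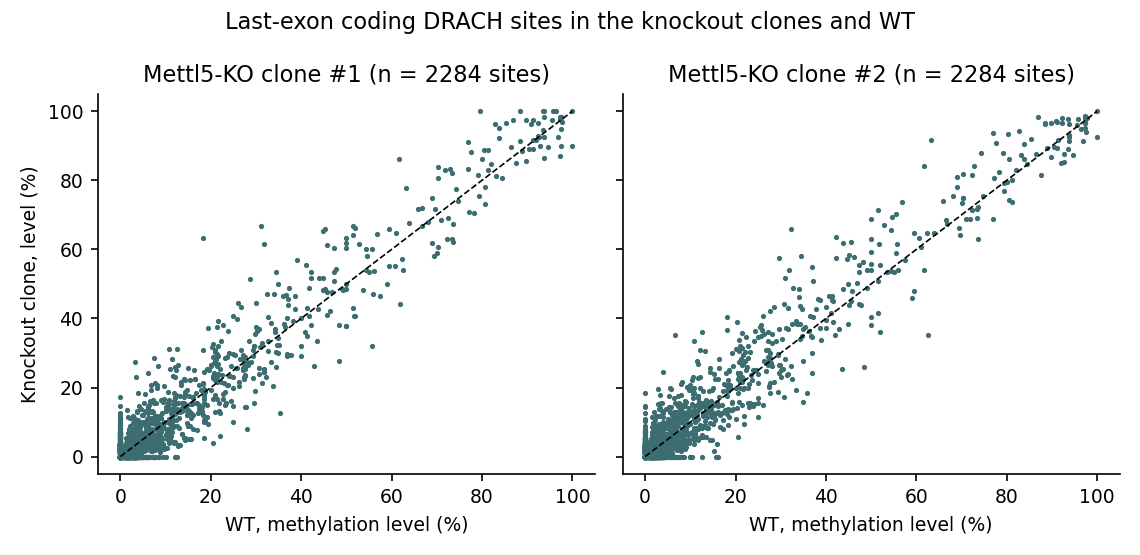
Methylation level (%) in each Mettl5-KO clone against WT for the 2284 DRACH sites of last-exon coding sequence, with the diagonal dashed. The points of both clones scatter about the diagonal, with mean differences from WT of 0.495 and 0.736 percentage points.

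Among the 14 sites higher in both clones before adjustment was one of Asns, which encodes asparagine synthetase, 124 nt from the junction (chr6:7675401). Its level was 6.67% for WT (75 reads), 20.7% for clone #1 (58 reads) and 35.2% for clone #2 (54 reads), with the smallest adjusted p of any member (0.751 in clone #2, Fisher's exact test). In Eef2, a translation elongation factor gene, a site at 184 nt was at 21.6% for WT (533 reads), with 29.3% (735 reads) and 29.5% (905 reads) in the clones. In Tuba1a, an alpha-tubulin gene, a site at 659 nt was at 52.8%, 61.6% and 67.1%. The 21 bases around it are the same as those printed for Tuba4a at 659 nt. Windows of 31 bases recur in other gene models at 13 of 14 Tuba1a and 3 of 5 Eef2 members. In Utf1 the GGACT site at 451 nt was at 80.4%, 88.8% and 93.3%. DMSO was at 28.7% for the Eef2 site, 68.6% for Tuba1a and 92.0% for Utf1, each above WT. The sites were chosen as higher in both clones than in WT, so only the DMSO value could fall either way. DMSO was also above WT at 215 of the 251 members that were methylated in DMSO or WT and covered in both datasets. None of the differences between clones and WT passed the adjustment.

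At the 2015 members covered in both datasets the mean was 9.94% in DMSO, 2.12% with STM2457 and 8.14% in WT (Pearson's r of DMSO and WT across sites 0.971, a description over sites that share coverage limits and motifs). Of 251 members methylated in DMSO or WT, 196 were methylated in both, 52 in DMSO alone and 3 in WT alone. DMSO was the higher at 215 of the 251. The datasets differ in cell line and batch, which cannot be told apart.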

How the data were processed

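Reads were demultiplexed by the authors with WarpDemuX. Basecalling, modification calls and the alignment to mm10 came from dorado 1.4.0, and modkit pileup 0.4.4 gave the calls per position. The deposited files hold raw counts of valid, m6A, unmodified, other and failed calls per position and strand, and a percent of m6A among valid calls, without normalization. Each dataset had the same positions in all its libraries, with at least 25 valid calls. Sequencing starts at the poly(A) tail, which favours 3′ ends, and calls that failed the filter (3.40 to 3.75% at members) are left out of the level.

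Levels were computed here as m6A calls over valid calls. Members were found on 1 principal transcript per gene in GENCODE M21 (lowest APPRIS number, then longest coding sequence). The stop codon was not counted as coding. Members, lists and named sites were chosen with earlier results of these data known. Named were the highest sites, those with the smallest decrease, the genes with most methylated members and most members, and listed genes. Members called in both clones were also to be named, and there were 0. Sites picked after their values were seen are said to be so in the text. The sites of 1 gene are not reported here. Comparisons used Fisher's exact test with Benjamini-Hochberg adjustment, the exact sign-flip permutation test over libraries and Clopper-Pearson intervals (scipy 1.17.1 with numba 0.67.0, on tables read with pandas 2.3.3 in Python 3.11.15). The authors' exon and 25% filters were not applied to the table. In simulated data, 200 members at 25% or more in the control were lowered at once in each dataset, at the real coverage, and tested by the same rules. For STM2457 that was fewer than the 6375 positions called lower in the data, which makes the adjustment stricter in the simulation. For STM2457, 64 of 100 were recovered at a true decrease of 80% and 27 of 100 at 50%. For both clones the counts were 45 of 100 and 23 of 100, with 0 false calls in either dataset. Of the members, 827 (11.8%, on 205 genes) have a window of 31 bases that occurs again in the annotation, and values without them are among the alternatives, added after the data were seen. Among named genes such windows lie at 13 of 14 Tuba1a, 13 of 13 Tuba1b, 7 of 9 Ddx5 and 18 of 44 Ints5 members. They also lie at 3 of 5 Eef2, 5 of 12 Pym1, 6 of 14 Zfp42, 4 of 13 Nanog and 2 of 15 Tuba4a members.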

Additional observations from a re-analysis of the deposited data

How the results depend on the processing

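The difference between far and near members was positive in every library under all 12 alternatives, with means of 6.61 to 33.5 percentage points. The differences from short internal exons (5.29 to 19.2), long internal exons (-12.0 to -2.26) and 3′ UTR (-9.41 to -2.61) kept their signs in every library under 11 alternatives each. Without clone #1 or clone #2 these means lay at 13.5 to 13.6, 8.03 to 8.09, -5.51 to -5.49 and -2.69 to -2.64, with a smallest possible p of 0.125. No member was called in both clones under the 5 alternatives that changed the adjustment, coverage or threshold, nor in either clone alone at the reported settings. For STM2457, 822 members were called lower at a coverage of at least 50 reads, where 3464 members remained to be tested, and 1 was called higher when p was adjusted over DRACH positions only, a Tuba1b site at 0.302% in DMSO and 1.11% with STM2457. The mean relative decrease was 79.6% at 50 reads, 81.5% for members at 10% or more in DMSO, 71.6% for those at 50% or more and 75.03% from pooled calls.

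The values per library are given in the order DMSO, STM2457, WT, clone #1 and clone #2. The share of methylated members was 14.8%, 2.34%, 8.39%, 9.15% and 9.66% at 50 reads. It was 28.5%, 8.57%, 20.4%, 21.3% and 22.2% at a threshold of 10%, and 9.95%, 1.07%, 5.21%, 5.56% and 5.78% at 50%. In clone #1 it was 11.7% with more than 25 reads, and with failed calls in the denominator it was 11.1% in clone #1 and 11.2% in clone #2. The mean level was 11.5%, 2.54%, 7.42%, 7.83% and 8.05% at 50 reads, and 12.9%, 3.14%, 8.38%, 8.89% and 9.08% with failed calls in the denominator. It was 8.99%, 1.90%, 6.05%, 6.33% and 6.63% with each gene counted once, 8.74%, 2.20%, 6.66%, 6.83% and 7.22% from pooled calls, and 29.3%, 7.74%, 20.5%, 21.7% and 22.1% for motifs that start with GGAC. Without members whose window recurs, an alternative chosen after seeing the data, it was 13.4%, 3.16%, 8.88%, 9.42% and 9.63%. In DMSO it was 13.4% with more than 25 reads and 13.3% with no RefSeq link asked for. Groups could not be paired by replicate, because they share fewer than 2 replicate numbers. With about 50 reads per site, the depth limits the precision of each single site.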
